A study of Mus musculus with 24 samples.

Results

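The genes described here are 10 enzymes and regulators of fatty acid synthesis and desaturation, Scd1, Scd2, Fasn, Acaca, Acly, Elovl5, Elovl6, Fads1, Fads2 and Srebf1. They were chosen by gene symbol, and all 10 were present among the 19780 genes of the control table and the 19979 genes of the paused table. The study sequenced poly(A) RNA of E14 cells, a mouse embryonic stem cell line, grown on gelatin in serum medium with leukaemia inhibitory factor (LIF). The 24 libraries form 6 groups of 4: wild type (WT) and the knockout lines Smad2_KO1 and Smad2_KO2, each under control conditions or paused with 200 nM INK128, an inhibitor of the kinase mTOR, for 12 h. Smad2 is a transcription factor activated by the receptors for Nodal and activin, and the series title ties it to repression of Pparg, a nuclear receptor of lipid metabolism, in paused cells. The labels give no more about the knockout lines than their numbers, and whether each is 1 clone is not stated.

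Fatty acid synthesis starts in the cytosol from citrate. ATP citrate lyase (Acly) splits citrate to give acetyl-CoA, acetyl-CoA carboxylase 1 (Acaca) makes malonyl-CoA from it in the committed step, and fatty acid synthase (Fasn) joins these units into palmitate. Elongases such as Elovl6 lengthen the product, the stearoyl-CoA desaturases Scd1 and Scd2 put a double bond into it, and Fads2, Elovl5 and Fads1 act in turn on polyunsaturated fatty acids taken up by the cell. Srebf1 codes for SREBP1, a membrane-bound transcription factor that, once cut free, activates most of these genes; mTOR complex 1 is known to promote this activation. In cells grown in serum, lipid is both made and taken up.

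The data are results tables and not values per library. Each of the authors' deposited tables gives, per gene, a mean normalized read count over libraries, a log2 fold change, its standard error (SE) and an adjusted p. The spread between single libraries, their depth and the values of each knockout line were not analysed here, and the SE is the measure of error throughout. Nothing in the labels says that the 4 libraries of a group came from separate cultures, so SE and p-values measure only the spread between these libraries, which may be technical. Changes are read as knockout over wild type because Smad2 was lower in both, by 0.35 (SE 0.07) in the authors' deposited control table and by 0.63 (SE 0.06) in the authors' deposited paused table; were the tables coded the other way, all directions given here would be swapped. Smad2 mRNA thus stood at 78.6% and 64.6% of wild type in the knockout cells, and which exons were targeted is not given in the sources used here. Pparg rose in both, by 3.26 (SE 0.34) in the authors' deposited control table and 4.44 (SE 0.34) in the authors' deposited paused table. Its means were low, at 48.0 and 85.7 normalized counts. The difference of 1.18 (SE 0.49) between these changes was not called (adjusted p 0.237 by the normal test described below). The label of embryonic stem cells was checked on 10 marker genes, Pou5f1, Nanog and Sox2 among them. All 10 had at least 5 ppm, where ppm is a gene's mean count in units of 1e-06 of the sum over all genes, and together they made up 5654 ppm in control and 5277 ppm in paused cells. Markers of fibroblasts, adipocytes and mesendoderm were low. Fibroblast markers summed to 20.5 and 22.0 ppm with Lum not listed in either and Dcn not listed in paused cells, adipocyte markers to 7.66 and 8.80 ppm with Fabp4, Plin1 and Lep not listed in either and Adipoq, Cfd and Retn not listed in paused cells, and mesendoderm markers to 16.7 and 15.2 ppm with Mesp1 not listed. Markers of primitive endoderm (384 and 414 ppm) and trophoblast (391 and 457 ppm) were all listed. In the authors' deposited table for either condition, 8 of 10 primitive endoderm markers were called higher and 1 lower in the knockout. Of 9 trophoblast markers 3 were called higher in the authors' deposited table for either condition, and 2 lower in control and 1 in paused cells. Fibroblast markers were called lower for 5 of 8 in the control and 4 of 7 in the paused table the authors deposited, and higher for 1 in each. Mesendoderm markers were called lower for 3 of 7 (T, Mixl1 and Eomes) and higher for 1 (Gsc) in the authors' deposited control table, and lower for 2 of 7 in the authors' deposited paused table. T, an early mesoderm factor, stood at -4.66 and -3.86 there. Of the adipocyte markers 2 of 5 were called higher in control and 2 of 2 in paused cells. Of the 10 stem cell markers 2 were called higher and 2 lower in each of the authors' deposited tables. Among all genes 41.4% were called in control and 42.6% in paused cells. The part of these other lineages in the lipogenic results was not tested, and in bulk RNA a change in the number of cells of a type and a change in RNA per cell cannot be told apart.

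Knockout cells had higher mRNA levels of the elongase Elovl6 and of the desaturase Scd1 in both conditions. Scd2 was lower in control but not called in paused cells, and Acly, Fads1 and Srebf1 were called in neither, as were 44.2% of the 19134 genes present in both tables. In the authors' deposited control table, 5 of the 10 genes had an adjusted p under 0.05, 4 higher (Elovl6, Scd1, Fads2 and Elovl5) and 1 lower (Scd2). Over all genes 41.4% were called there, 19.5% higher and 21.9% lower, so the share of called genes in the group is near the background. Of the genes at 5 ppm or more, adjusted among themselves, 5569 of 10793 were called there. Of those calls 36.8% were higher. The 5 called genes of the authors' deposited paused table were Scd1, Elovl6, Acaca and Fads2, which were higher, and Fasn, which was lower. Over all genes 42.6% were called in paused cells, 20.5% higher and 22% lower. At 5 ppm or more, 5834 of 11006 genes were called in paused cells, and 38.1% of those calls were higher. Elovl6, Scd1 and Fads2 were called higher in both tables, as were 14.3% of all genes in both, and none of the 10 was called lower in both, as 16% of all genes were. The median change of the 10 genes was 0.02 in control and 0.07 in paused cells, against 0.00085 and -0.0016 over all genes. Among genes at 5 ppm or more, as all 10 are, the medians were -0.053 and -0.047. A change of at least 1.5-fold was reached by 1 gene in each of the authors' deposited tables, Scd2 in control and Scd1 in paused cells. Calls over all genes leaned the other way when the summed counts of both genotypes were made equal. Then 60.5% of calls were higher in control cells against 47.1% as deposited, and 57.6% in paused cells against 48.2% as deposited. Centring on the median of genes at 5 ppm or more gave 60.1% in control and 60.9% in paused cells.

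**Figure D1:**
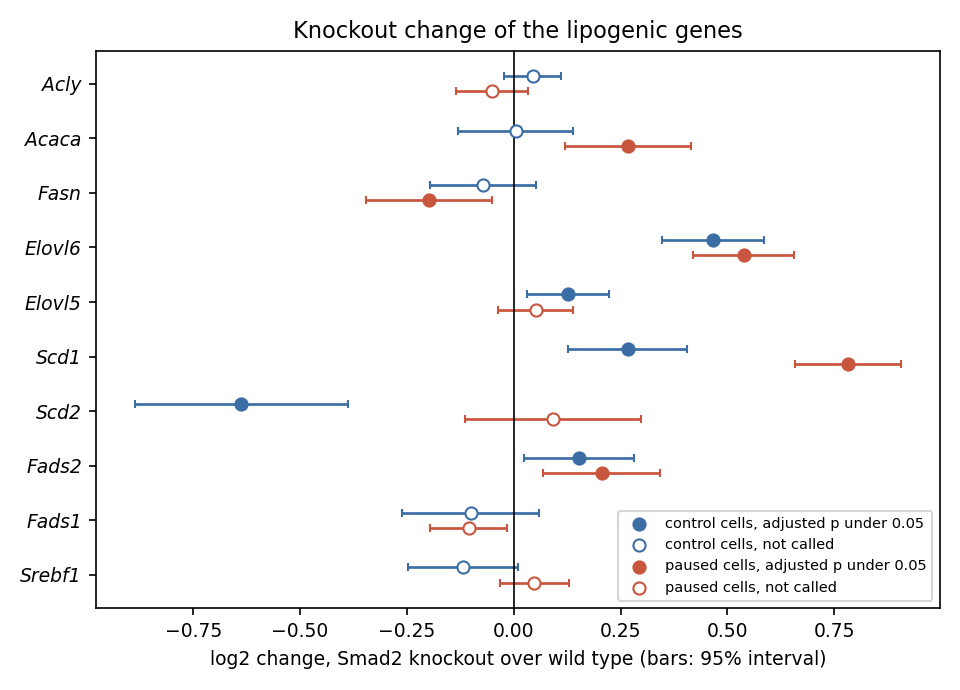
Log2 change of each gene, Smad2 knockout over wild type, in control (blue) and paused cells (red), with 95% intervals from the deposited standard errors; filled points have an adjusted p under 0.05. Elovl6 lies near 0.5 in both conditions, Scd1 moves from 0.27 to 0.78, and Scd2 from -0.64 to 0.09.

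Promoter sequences are shown for 3 of the genes, to set a gene raised in both conditions (Elovl6) beside the gene called lower in paused cells (Fasn) and the elongase of polyunsaturated fatty acids (Elovl5). The sequences are those of RefSeq on GRCm38.p6, which is the mm10 build of the submitters' processing notes, from 250 bases before to 50 bases after the annotated start, 5′ to 3′ on the gene's strand. Promoters of 7 of the 10 genes were used here; those of Scd1, Scd2 and Fads1 were not analysed here. Capitals mark CCAAT, the letters bound by the factor NF-Y, and CACGTG, an E-box, on either strand; matches may overlap.

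Fasn, chr11:120824498-120824797, minus strand: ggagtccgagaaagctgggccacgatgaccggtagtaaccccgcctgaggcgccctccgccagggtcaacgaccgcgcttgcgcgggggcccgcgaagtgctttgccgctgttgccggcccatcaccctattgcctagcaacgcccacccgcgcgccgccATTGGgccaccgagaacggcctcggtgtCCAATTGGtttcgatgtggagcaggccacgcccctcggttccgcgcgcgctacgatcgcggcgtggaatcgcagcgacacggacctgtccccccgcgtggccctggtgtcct

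Elovl6, chr3:129532136-129532435, plus strand: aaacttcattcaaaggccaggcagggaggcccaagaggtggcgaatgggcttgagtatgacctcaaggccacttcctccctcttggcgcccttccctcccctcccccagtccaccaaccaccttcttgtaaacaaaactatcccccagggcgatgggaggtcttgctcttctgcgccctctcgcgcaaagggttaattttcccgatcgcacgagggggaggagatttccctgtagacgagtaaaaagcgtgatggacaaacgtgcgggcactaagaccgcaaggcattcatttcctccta

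Elovl5, chr9:77917115-77917414, plus strand: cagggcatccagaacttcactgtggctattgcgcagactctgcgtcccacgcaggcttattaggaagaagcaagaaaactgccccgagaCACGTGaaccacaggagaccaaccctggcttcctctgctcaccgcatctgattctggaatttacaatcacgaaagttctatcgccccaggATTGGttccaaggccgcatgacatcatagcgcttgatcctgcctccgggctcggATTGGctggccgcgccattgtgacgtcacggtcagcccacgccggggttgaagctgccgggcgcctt

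The Fasn promoter holds 3 matches to CCAAT, 2 of them overlapping on opposite strands, the Elovl5 promoter holds 2 and an E-box, and the Elovl6 window holds neither. The 7 genes have 9 promoters in all. CCAAT occurred in 5 of them (those of Fasn, Acly and Elovl5 and 2 of Srebf1) and in 37.4% of all 32851 promoters. CACGTG occurred in 1 of the 9 and in 7.15% of all promoters, and GGGCGG, the letters of an Sp1 site, in 4 of the 9 and in 35.7%. None of these 9 windows held TCACNCCAC, a spelling of the SREBP site found in 1.24% of all promoters, or the direct repeat of PPAR-RXR, found in 0.381%. The only Acaca window (chr11:84195188-84195487, plus strand) lies inside the gene, which is annotated from 84129672. The first start of Acaca was therefore not searched. These matches describe letters in short windows and are not binding data.

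Of the enzymes that build palmitate, none was called in control cells. Acly had a mean of 23388 normalized counts in the authors' deposited control table, and its change of 0.04 (SE 0.03, adjusted p 0.301) corresponds to 103% of the wild-type level with a 95% interval of 98.5% to 108%. Fasn, with a mean of 25389 normalized counts, stood at 95.2% of wild type (87.3% to 104%, log2 change -0.07, SE 0.06) in the authors' deposited control table. Acaca stood at 100.3% (91.4% to 110.2%, log2 change 0.0048, SE 0.07) in the authors' deposited control table. Each of these intervals leaves room for changes of several percent. In paused cells Acaca and Fasn were called in opposite directions. Acaca rose by 0.27 in the authors' deposited paused table (SE 0.08, adjusted p 0.00159, mean 2283 normalized counts), reaching 120% of wild type. Fasn fell by 0.20 in the authors' deposited paused table (SE 0.07, adjusted p 0.0220, mean 13637 normalized counts), to 87.2%, but this call was lost when the genotypes were put on equal summed counts (-0.16, adjusted p 0.0673) and when changes were centred on the median (-0.15, adjusted p 0.0930). When the change had to exceed 1.2-fold, the paused calls of Acaca and Fasn were both lost (adjusted p 1), as they were with the statistic divided by its middle spread over all genes (adjusted p 0.827 for Acaca and 0.941 for Fasn). Acly stood at 96.6% (91.1% to 102%) in the authors' deposited paused table and was not called. With either scaling Acly was called higher in control cells, at 0.10 (adjusted p 0.0108 and 0.0125). Acaca shares 30.4% of its 50-base transcript words with other genes, mostly the predicted gene Gm5182, so its counts are less certain than those of Acly and Fasn, which share none.

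Of the elongases, Elovl6, which lengthens palmitate and other saturated and monounsaturated fatty acids, was called higher in both conditions. It rose by 0.47 in the authors' deposited control table (SE 0.06, adjusted p 5.78e-13, mean 7835 normalized counts), which is 138% of wild type with an interval of 127% to 150.1%. In the authors' deposited paused table it rose by 0.54 (SE 0.06, adjusted p 1.19e-17, mean 5164 normalized counts), to 145% (134% to 157%). Elovl6 kept its call in both conditions under equal summed counts, under centring and in the test of a change beyond 1.2-fold, and lost it with the statistic divided by its middle spread over all genes (adjusted p 0.178 and 0.0582). Elovl5, which lengthens polyunsaturated fatty acids, was higher by 0.13 in the authors' deposited control table (SE 0.05, adjusted p 0.0251, mean 3548 normalized counts), or 109% of wild type. This call was lost in the 1.2-fold test (adjusted p 1) and with the divided statistic (adjusted p 0.949). Elovl5 stood at 104% in the authors' deposited paused table (97.5% to 110.1%, adjusted p 0.366) and was not called. Exons of Elovl6 overlap the antisense gene Gm35986 on the opposite strand, which had means of 67.3 and 51.6 normalized counts; whether counting used the strand is not stated in the sources used here.

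The stearoyl-CoA desaturases were called in opposite directions in control cells. Scd2, the more abundant of the pair in these cells, fell by 0.64 in the authors' deposited control table (SE 0.13, adjusted p 4.85e-06). Its mean was 7955 normalized counts, and knockout cells stood at 64.3% of wild type with an interval of 54.1% to 76.4%. In the authors' deposited paused table its change was 0.09 (SE 0.10, adjusted p 0.510, mean 3114 normalized counts), with an interval of 92.4% to 123% of wild type. Scd1, in contrast, was higher in both. It rose by 0.27 in the authors' deposited control table (SE 0.07, adjusted p 8.63e-04, mean 1868 normalized counts), reaching 120% of wild type, and by 0.78 in the authors' deposited paused table (SE 0.06, adjusted p 1.44e-32, mean 1173 normalized counts), to 172% (158% to 187%). In control cells the call of Scd1 was lost when the change had to exceed 1.2-fold (adjusted p 1), and with the statistic divided by its middle spread the calls of Scd1 (adjusted p 0.826) and Scd2 (adjusted p 0.609) were both lost; the call of Scd1 in paused cells held in both tests. As point values, the ratio of Scd1 to Scd2 mRNA was thus 1.87-fold higher in knockout than in wild-type control cells and 1.61-fold higher in paused cells; an error for this ratio would need the libraries. The deposited SE of Scd2 in control cells was larger than that of 98.5% of the 2179 genes with a mean within 2-fold of its own (median SE 0.05), and its SE in paused cells larger than that of 96.9% of 4016 such genes. Those of Scd1 were larger than 67.4% and 61.9% of such genes. Whether the 2 knockout lines differ in Scd2 was not tested. Scd1 and Scd2 share few transcript words of 50 bases with any other gene (4.56% and 3.97%), mostly with each other and with Scd3.

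Of the desaturases of polyunsaturated fatty acids, Fads2 was called higher in both conditions, in control cells just inside the threshold, and Fads1 in neither, in paused cells just outside it. Fads2 was higher by 0.15 in the authors' deposited control table (SE 0.07, adjusted p 0.0497, mean 1372 normalized counts) and by 0.21 in the authors' deposited paused table (SE 0.07, adjusted p 0.00977, mean 508 normalized counts), or 111% and 115% of wild type. Both calls of Fads2 were lost in the 1.2-fold test (adjusted p 1) and with the divided statistic (adjusted p 0.972 and 0.908). Fads1 had changes of -0.10 (SE 0.08, adjusted p 0.335) and -0.11 (SE 0.05, adjusted p 0.0502) in the authors' deposited control and paused tables, or 93.2% and 92.9%. With adjustment over genes at 5 ppm or more alone, Fads1 was called lower in paused cells (adjusted p 0.0415). Srebf1, the transcription factor gene, was called in neither table. It stood at 92.1% of wild type (84.2% to 100.7%) in the authors' deposited control table and at 103% (97.8% to 109%) in the authors' deposited paused table, with means of 2483 and 2672 normalized counts. Exons of Srebf1 overlap those of Rai1 on the opposite strand (1701 and 2555 normalized counts), so part of its signal is uncertain. The isoforms SREBP1a and SREBP1c come from the same gene and are not separated here.

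Whether the knockout change itself differed between the conditions was tested for every gene as the paused minus the control change over their combined SE, two-sided, with Benjamini-Hochberg adjustment across the 19134 genes that both tables list. It differed for 2 of the 10 genes, both desaturases and both toward higher values in paused cells, against 1.44% of all genes (0.716% higher and 0.721% lower in paused cells). Among genes averaging 5 ppm or more over the conditions, as all 10 do, the share was larger, at 321 of 10958. The 10 genes were chosen with earlier results of these data known. Scd1 differed by 0.52 (SE 0.10, adjusted p 1.01e-04), a ratio of folds of 1.43 with an interval of 1.26 to 1.63, and ranked 12 of 19134 by absolute statistic. Scd2 differed by 0.73 (SE 0.16, adjusted p 0.00313), a ratio of 1.66 with an interval of 1.32 to 2.07, and ranked 60. Scd1 went from a smaller to a larger rise, and Scd2 from a fall to a value that was not called. Both calls held under equal summed counts and under centring (0.50 and 0.51 for Scd1, 0.71 and 0.72 for Scd2), where 35.9% of the calls over all genes were higher in paused cells with equal summed counts against 49.8% as deposited. With the statistic divided by its middle spread of 1.23, Scd1 kept its call (adjusted p 0.0172) and Scd2 lost it (adjusted p 0.104). When the difference had to exceed 1.2-fold, both calls were lost.

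**Figure D2:**
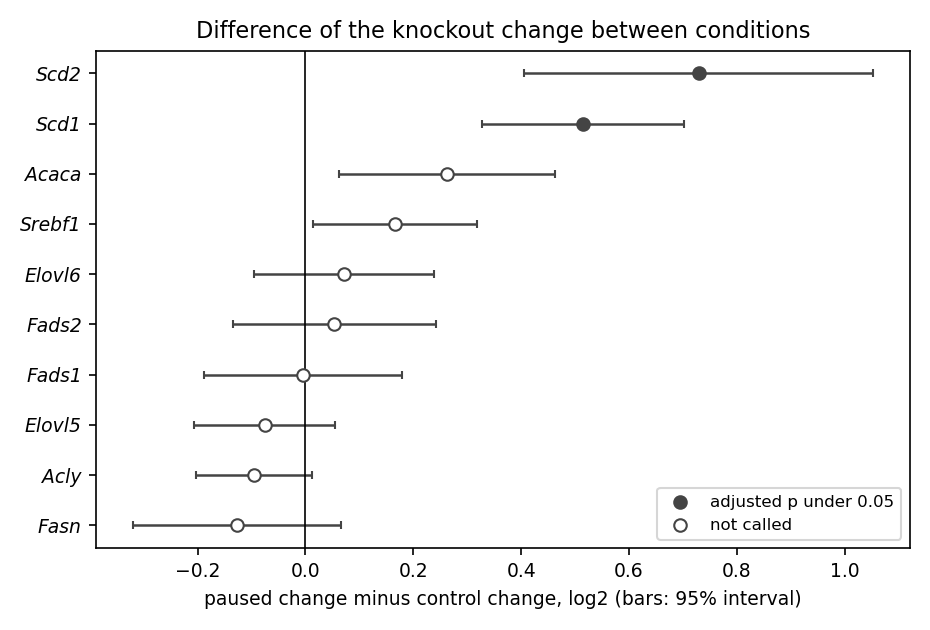
Paused change minus control change for each gene on the log2 scale, with 95% intervals; filled points have an adjusted p under 0.05. Scd2 (0.73) and Scd1 (0.52) lie to the right of the other genes, which range from -0.13 for Fasn to 0.26 for Acaca.

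For the other 8 genes the difference was not called. Acaca came next, at 0.26 with an interval of 0.06 to 0.46 (adjusted p 0.197), and Srebf1 at 0.17 with an interval of 0.01 to 0.32 (adjusted p 0.321). The interval was -0.10 to 0.24 for Elovl6, -0.13 to 0.24 for Fads2 and -0.19 to 0.18 for Fads1. It was -0.21 to 0.05 for Elovl5, -0.20 to 0.01 for Acly and -0.32 to 0.07 for Fasn. Over the 10 genes the median difference was 0.06, against 0.0056 over all genes, and 4 of the 10 had an unadjusted p under 0.05, as did 12.9% of the 19134 genes.

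**Figure D3:**
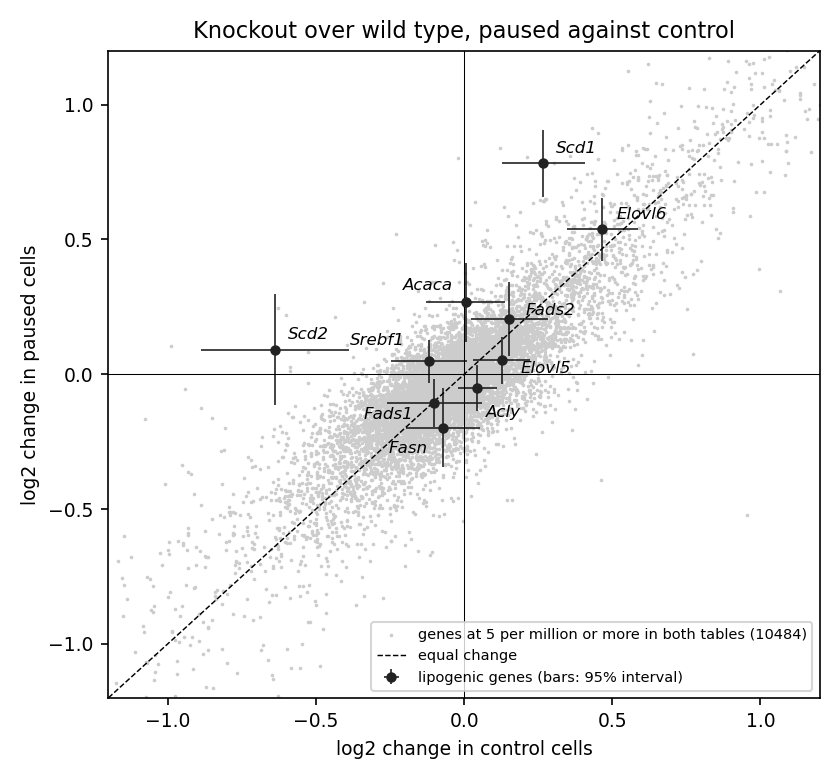
Log2 change in paused cells against that in control cells for the 10 genes (black, with 95% intervals) and for the 10484 genes at 5 ppm or more in both tables (grey, of which 136 have a change beyond 1.2 in either table and lie outside the axes). The dashed line marks equal change. Scd1 and Scd2 lie above the line, and Elovl6 lies on it within its interval.

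Levels of different genes are compared per length, as the mean count divided by the length of all exons of the gene, in ppm of the same sum over all genes with a length. Acly was the most abundant, at 333 ppm per length in control and 225 in paused cells, followed by Fasn at 174 and 104. In control cells came then Scd2 (109), Elovl6 (91.5), Elovl5 (75.7), Srebf1 (33.1), Fads2 (31.3), Scd1 (28.7), Fads1 (24.5) and Acaca (16.6). These levels have no error, and the order from Srebf1 down to Acaca turns in part with the length used. With the longest transcript in place of all exons, Fads1 (25.7) stood above Fads2 (24.7), and Acaca (22.5) above Scd1 (21.9). Scd2 exceeded Scd1 by 3.81-fold per length in control and 2.38-fold in paused cells.

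The mean levels of 8 of the 10 genes were lower in the paused than in the control table. The means pool genotypes and were normalized in separate tables, so the ratios that follow, of shares of the summed mean counts, are descriptions with no test. The median ratio of paused to control was 0.643 for the 10 genes and 1.04 for the 10484 genes at 5 ppm or more in both tables. The pooled ratio was 0.385 for Fads2 and 0.407 for Scd2, and 99.1% and 98.8% of those genes had a higher one. It was 0.558 for Fasn, 0.628 for Acaca, 0.633 for Acly, 0.653 for Scd1, 0.685 for Elovl6 and 0.805 for Elovl5. Srebf1 itself (1.12) and Fads1 (1.69) had pooled ratios above 1, and 8.38% of genes had a ratio above that of Fads1. The level of Fads2 over that of Fads1, per length, was 1.27 in control and 0.291 in paused cells with all exons, and 0.959 and 0.219 with the longest transcript, so the order of the pair in control cells turns with the length used. The knockout change bounds what pooling can add, since a wild-type mean lies between the pooled mean and that mean divided by the fold change, if the fitted change is taken as the ratio of group means. Within those bounds the wild-type ratio of paused to control was 0.334 to 0.428 for Fads2, 0.245 to 0.407 for Scd2, 0.531 to 0.641 for Fasn and 1.57 to 1.82 for Fads1. For Srebf1 it was 0.997 to 1.12, which spans 1, so its direction in wild type is not given by these means. For Scd1 it was 0.380 to 0.785 in wild type, and the knockout ratio, at 0.543 to 1.12, spans 1. The knockout ratio of Scd2 was 0.407 to 0.674, which overlaps that of Fasn at 0.487 to 0.587. The order of the genes turns with the genotype: if 4 wild-type and 8 knockout libraries entered each mean, the wild-type ratio was 0.297 for Scd2, 0.376 for Fads2, 0.501 for Scd1, 0.554 for Acaca and 0.591 for Fasn.

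**Figure D4:**
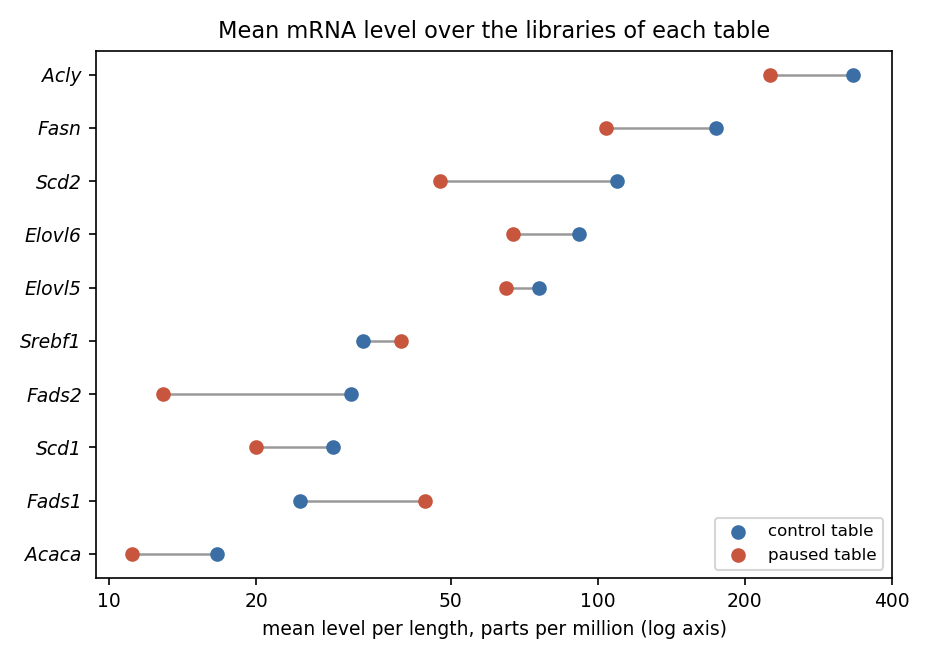
Mean level of each gene per length, in ppm on a log axis, in the control (blue) and paused table (red), with no error available. The paused point lies to the left for 8 genes, farthest for Fads2 and Scd2, and to the right for Srebf1 and Fads1.

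Both pairs of desaturases are neighbours on chromosome 19 of GRCm38, the build of the GENCODE M21 annotation. Scd2 (chr19:44293674-44306864, plus strand) and Scd1 (chr19:44394455-44407879, minus strand) flank Scd4, which was not listed in either table. Scd3 had means of 52.1 and 50.1 normalized counts and changes of -0.32 and 0.18 in the authors' deposited control and paused tables, not called in either. Of the other listed genes that start within 200 kb of Scd1, which are Wnt8b, Sec31b, Ndufb8 and Hif1an, Wnt8b, a signalling ligand at a mean of 17.2 normalized counts, was called higher in the authors' deposited control table (1.37, SE 0.38, adjusted p 0.00139), and no other was called in either table. The change of Wnt8b in the authors' deposited paused table, 0.50 (SE 0.43), was not called. Fads2 (chr19:10062765-10101746, minus strand) and Fads1 (chr19:10182888-10196877, plus strand) are read away from each other. Within 200 kb of Fads1, Rab3il1, an exchange factor of Rab proteins, rose by 1.06 in the authors' deposited control table (SE 0.15, adjusted p 3.8e-11) and by 0.31 in the authors' deposited paused table (SE 0.11, adjusted p 0.0167), a difference of -0.76 (SE 0.19, adjusted p 0.0103). Fen1, a nuclease of DNA replication, fell by 0.15 in the authors' deposited control table (SE 0.06, adjusted p 0.0319). Its change of -0.09 (SE 0.05) in the authors' deposited paused table was not called. Best1, Fads3, Tmem258, Myrf and Dagla were not called in either. By distance between the pair of log2 changes, the genes at 5 ppm or more most like Scd1 over the 2 comparisons were Lgals9 (0.30 and 0.78 in the authors' deposited control and paused tables), Clip2 (0.21 and 0.81) and Ddc (0.36 and 0.81). By the normal test above, the difference between conditions was called for Clip2 (adjusted p 0.0103). It was not called for Lgals9 (adjusted p 0.184) or Ddc (adjusted p 0.136).

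Other enzymes of the pathway were counted from lists. Of 18 listed enzymes that supply or activate fatty acids, the authors' deposited control table called 2 higher and 7 lower (median -0.08), and the authors' deposited paused table called 3 higher and 6 lower (median 0.03). With equal summed counts these became 4 and 5 in control and 5 and 4 in paused cells. With centring on the median they became 6 and 2 in paused cells. As deposited, 50% of the 18 were called in each condition, against 41.4% of all genes in control and 42.6% in paused cells. Shares over all genes include many genes at low counts. Of genes at 5 ppm or more, adjusted among themselves, 5569 of 10793 were called in control and 5834 of 11006 in paused cells. The share of the 18 is not above these. In control and paused cells 16 and 17 of the 18 reached 5 ppm, as did most genes of each list that follows. Mid1ip1, whose product promotes polymerisation of acetyl-CoA carboxylase, fell by 1.14 (SE 0.09) and 0.83 (SE 0.09) in the authors' deposited control and paused tables. The acyl-CoA synthetases Acsl5 (-0.66 and -0.34) and Acsl3 (-0.53 and -0.42) also fell in both of the authors' deposited tables. Acss2, which makes acetyl-CoA from acetate, rose by 0.43 (SE 0.08) and 0.52 (SE 0.07) in the authors' deposited control and paused tables. Thrsp, a relative of Mid1ip1 at a low mean of 42.0 normalized counts, rose by 0.58 (SE 0.22) in the authors' deposited paused table. Its change of 0.61 (SE 0.28) in the authors' deposited control table was not called. For these 18 genes the difference between conditions was called for 0, by the test above, and 4 had an unadjusted p under 0.05, against 12.9% of all genes.

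Among 18 further genes of elongation and desaturation, 3 were called higher and 6 lower in the authors' deposited control table (median -0.16), and 2 higher and 9 lower in the authors' deposited paused table (median -0.19). Equal summed counts gave 4 and 4 in control and 3 and 7 in paused cells. As deposited, the calls made up 50% of the 18 in control and 61.1% in paused cells, against 41.4% and 42.6% of all genes. Fads6, a little-studied member of the desaturase family, rose by 0.88 (SE 0.11) and 0.74 (SE 0.07) in the authors' deposited control and paused tables. Elovl2, an elongase of polyunsaturated fatty acids, rose by 0.43 (SE 0.08) and 0.24 (SE 0.07). Hacd1 (-0.55 and -0.51), a dehydratase of the elongation cycle, and Elovl4 (-0.49 and -0.21), an elongase of very long chains, fell in both of the authors' deposited tables. Degs2, a desaturase of ceramide synthesis, fell by 0.42 (SE 0.14) in the authors' deposited paused table. Its change of -0.29 (SE 0.14) in the authors' deposited control table was not called. The difference was called for 0 of the 18, and 3 had an unadjusted p under 0.05, against 12.9% of all genes.

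Of 26 genes that control SREBP1 and lipogenesis, 3 were called higher and 4 lower in the authors' deposited control table (median 0.03) and 6 higher and 5 lower in the authors' deposited paused table (median -0.02). With equal summed counts the balance in control cells turned to 7 higher and 2 lower (median 0.08), and paused cells had 7 higher and 5 lower (median 0.01). As deposited, 26.9% of the 26 were called in control and 42.3% in paused cells, against 41.4% and 42.6% of all genes. Mlxipl, which codes for the carbohydrate-sensing factor ChREBP, rose by 0.73 (SE 0.09) and 0.47 (SE 0.08), and Rxra, the partner of the nuclear receptors LXR and PPAR, by 0.65 (SE 0.10) and 0.59 (SE 0.06), in the authors' deposited control and paused tables. Lpin1, a phosphatidate phosphatase, rose by 0.47 (SE 0.07) and 0.19 (SE 0.05) in the same tables. Mlxip, a relative of Mlxipl, rose by 0.32 (SE 0.05) in the authors' deposited paused table, and its control change there of 0.15 (SE 0.07) was not called. Trib1, a pseudokinase, fell by 0.37 (SE 0.15) in the authors' deposited control table. Its change of -0.34 (SE 0.27) in the authors' deposited paused table was not called. The difference was called for 0 of 26, with 5 at an unadjusted p under 0.05, against 12.9% of all genes. The 22 SREBP2 targets of cholesterol synthesis and uptake, by comparison, had 8 called lower in the authors' deposited control table (median -0.12), and 13 lower and 1 higher in the authors' deposited paused table (median -0.14). With equal summed counts these were 4 lower and 3 higher in control cells, and 11 lower and 2 higher in paused cells. The deposited calls made up 36.4% of the 22 in control and 63.6% in paused cells, against 41.4% and 42.6% of all genes. Idi1 (-0.38 and -0.43) and Cyp51 (-0.40 and -0.34), enzymes of sterol synthesis, fell in both of the authors' deposited tables. Msmo1, an enzyme of sterol demethylation, fell by 0.37 (SE 0.06) in the authors' deposited paused table. Its change of -0.14 (SE 0.06) in the authors' deposited control table was not called.

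**Figure D5:**
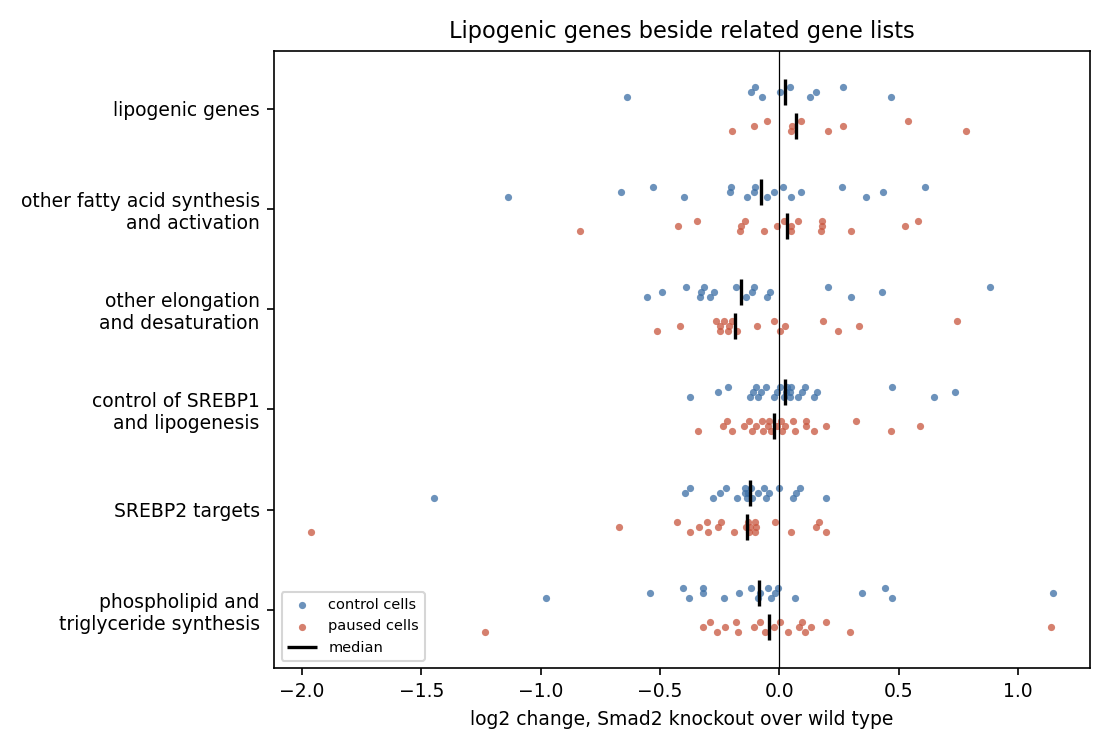
Log2 change, Smad2 knockout over wild type, of each listed gene in control (blue) and paused cells (red), with the median of each list as a black bar; vertical scatter within a row has no meaning. The medians of the lists lie between -0.19 and 0.07, and the 10 lipogenic genes spread from -0.64 (Scd2) to 0.47 (Elovl6) in control cells.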

How the data were processed

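Poly(A) RNA libraries of 6 groups were grouped by genotype and condition from their titles. FastQC, Trim Galore, HISAT2, featureCounts and DESeq2 and the build mm10 are named in the submitters' processing notes, without versions or settings. The authors deposited 2 results tables. Per the file headers, the mean normalized count is a signal, averaged over libraries by the authors, the change is a deposited log2 ratio with its standard error, the deposited statistic is a score, and p-values and adjusted p-values are deposited with it. The statistic equals the change over its standard error, and the adjusted p was recomputed to within 0.852%. Which libraries entered, and their depth, are not given in the sources used here.

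From these tables, 95% intervals, the difference between conditions (normal test, Benjamini-Hochberg adjustment), levels per length (GENCODE M21) and promoter matches were computed. A length was found for 87.6% of control and 87.0% of paused genes. The tools were Python 3.11.15, numpy 2.4.6, scipy 1.17.1, pandas 2.3.3 and matplotlib 3.10.9. The called genes have an adjusted p under 0.05. The members and lists were chosen with earlier results of these data known. Named genes are the 10 members, Smad2 and Pparg, and at most 5 called genes per list by size of change, listed genes within 200 kb of Scd1 or Fads1, and the 3 genes nearest to the member with the largest statistic of the difference. Scd3 and the genes overlapping Srebf1 and Elovl6 are named for their position, after values were seen. Some genes that the rule names are not reported here. Alternatives were a stricter threshold, a test against 1.2-fold, a minimum of 5 ppm (230 and 221 normalized counts), 2 scalings and a scaled statistic.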

Additional observations from a re-analysis of the deposited data

Results flagged for a closer look

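The knockout change of 2 of the 10 genes differed between paused and control cells by a test of the difference itself. Scd2 differed by 0.73 on the log2 scale (SE 0.16, adjusted p 0.00313) and Scd1 by 0.52 (SE 0.10, adjusted p 1.01e-04). Over all 19134 genes 1.44% differed, and 321 of the 10958 genes averaging 5 ppm or more. Scd2 had a deposited SE above that of 98.5% of genes of like abundance in control cells. The part of a spread between the knockout lines in it was not tested.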

How the results depend on the processing

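No paired analysis was possible because the deposited tables hold no value per library; tests without a replicate could not be run for the same reason. The count over all genes of 8189 in control cells became 2404 in a test against 1.2-fold and 293 with the statistic divided by its middle spread (2.76, 2.80 and 1.23 in control, paused and difference), 8504 in paused cells became 2426 and 450, and the 275 differences became 4 and 35, and 102 at an adjusted p under 0.01. Of the 10 lipogenic genes, 5 were called in control cells; the count became 3 at an adjusted p under 0.01 (Scd1, Scd2 and Elovl6), 2 against 1.2-fold (Scd2 and Elovl6) and 0 with the scaled statistic, where 1 had an unadjusted p under 0.05 by the normal test. The 5 of paused cells became 2 against 1.2-fold (Scd1 and Elovl6) and 1 with the scaled statistic (Scd1). The 2 called differences became 0 against 1.2-fold, with both at an unadjusted p under 0.05 by the normal test, and 1 with the scaled statistic (Scd1). Equal summed counts assumed 4 wild-type and 8 knockout libraries behind each mean; 4 and 4, tried after seeing the data, gave counts of 7863, 8205 and 297. These scalings moved changes by up to 0.06. The scalings are the settings that move the log2 value itself; over the 3 of them, 0 of 30 values per comparison changed sign, and 27, 27 and 30 kept their side of the threshold in control, paused and difference. The exceptions were Acly, called higher in control cells, and Fasn, no longer called in paused cells, under each. Members with an E-box went from 1 to 0 with the 150 bases before the start alone. Levels per length and ratios of paused to control moved by less than 1.5 times with the longest transcript and with the other scalings of the means. What the SE of Scd2, the overlap of Srebf1 with Rai1 and the shared words of Acaca owe to single libraries or to the counting was not tested.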

Other observations

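Enzymes that use acyl-CoA for phospholipids and triglycerides gave values beside those of synthesis. Of 20 listed, 3 were called higher and 7 lower in the authors' deposited control table, and 2 higher and 7 lower in the authors' deposited paused table, with medians of -0.09 and -0.04; with changes centred on the median of genes at 5 ppm or more the paused counts were 5 and 5 and the median 0.0041. As deposited, the calls made up 50% of the 20 in control and 45% in paused cells, against 41.4% and 42.6% of all genes. In each condition 18 of the 20 were at 5 ppm or more. Of all genes at that level, 5569 of 10793 and 5834 of 11006 were called. Gpat2, a glycerol-phosphate acyltransferase best known from the germline, rose by 1.15 (SE 0.09) and 1.14 (SE 0.08) in the authors' deposited control and paused tables. The lysophospholipid acyltransferases Mboat1 (-0.98 and -1.23), Lpcat4 (-0.54 and -0.26) and Mboat7 (-0.40 and -0.18) fell in both of the authors' deposited tables. The difference between conditions was called for 0 of the 20 by the normal test, with 4 at an unadjusted p under 0.05, against 12.9% of all genes.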
